A study of Mus musculus with 37 samples.

Results

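The Zfp genes of the mouse encode zinc finger proteins, most of them with arrays of C2H2 fingers that read DNA sequence. The members described here were the genes whose symbol is Zfp followed only by digits and whose mean normalized count was 100 or more over the 12 libraries of the second Tet2 knockdown table. That rule kept 142 of 337 Zfp genes, out of 24411 genes in each table, and left 195 below the level. It used the mean over both groups of that experiment and no difference between groups. The members just inside it were Zfp454, with a mean of 101.1 normalized counts, Zfp317 at 101.6 and Zfp329 at 104.3. Just outside were Zfp84 at 98.93, Zfp606 at 96.83 and Zfp551 at 95.76.

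The series holds 37 RNA-seq libraries from mouse neurons in 4 experiments on Tet2, an enzyme that oxidizes 5-methylcytosine in DNA. In the nuclei experiment, hippocampal neuronal nuclei of C57/Bl6 mice were compared between 4 WT libraries, which carry the floxed allele (Tet2fl/fl), and 3 Tet2 cKO libraries with CamKIIaCreERT2 on the same floxed allele. The CamKIIa promoter drives this tamoxifen-inducible Cre in forebrain excitatory neurons and does not target other cell types. In the first knockdown, E17 primary neuron cultures of C57/Bl6 received lentivirus with a hairpin against luciferase (shLuciferase, 6 libraries) or against Tet2 (shTet2, 6 libraries). The second knockdown compared 6 shLuc with 6 Tet2 KD libraries of in vitro primary neurons. Its column names give a hairpin against luciferase or Tet2 and mark both groups 3d. The overexpression experiment compared 3 synGFP control (GFP) with 3 Tet2 OE libraries of in vitro primary neurons. The labels used here give no strain for those last 2 experiments and no age for the mice. Nothing in them says whether libraries of a group came from separate animals or cultures, so p-values measure only the spread between these libraries, which may be technical.

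Tet2 itself checked the labels. Its mean normalized count was 985.5 ± 73.92 (SD, n = 4) in WT and 638.9 ± 201.1 (SD, n = 3) in cKO nuclei (exact two-sided permutation p = 0.0286). In the second knockdown it was 459.3 ± 74.71 against 175.2 ± 87.61 (SD, n = 6 each; exact permutation p = 0.00216). With overexpression it was 1724 ± 773.5 against 3823 ± 1538 (SD, n = 3 each; exact permutation p = 0.1, the smallest that 3 against 3 allows). It was not lower in the first knockdown: 460.8 ± 189.9 in shLuciferase and 504 ± 149 in the libraries labelled shTet2 (SD, n = 6 each; exact permutation p = 0.667). That experiment is therefore described by its labels only.

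KRAB zinc finger proteins, the largest group among the Zfp genes, carry an N-terminal KRAB domain that binds Trim28. Trim28 brings in Setdb1, which methylates lysine 9 of histone H3, and HP1 proteins, so that the bound DNA, often a transposable element or an imprinted region, is silenced and keeps its DNA methylation. Zfp57 and Zfp445 are the best known of these in imprinting, where they hold DNA methylation at imprinted control regions. Members without KRAB have other roles, among them transcriptional activation, RNA binding, ubiquitin ligation and mitosis.

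Among the 141 members with a gene model in GENCODE vM21 (mm10), whose coding sequence was translated, 140 held at least 1 C2H2 finger pattern, with a median of 9 and up to 37 in Zfp142; Zfp330 held 0. A KRAB pattern was found in 64 members (45.4%) and not in 77, against 66.3% of the Zfp genes below the level. In the counts and medians below, with or without KRAB refers to this pattern only, which can miss a domain. Members with KRAB had a median of 10.5 fingers and those without 8. They lay on 20 chromosomes, 42 of them on chromosome 7, and 75 had another Zfp gene within 100 kb. Reads of near copies can be split between genes: 18 members shared over 5% of the 50-base words of their transcript with another gene, up to 43.95%, and 33 had exons overlapped by a gene on the other strand. The library kit is strand-specific, but whether counting used the strand is not given in the sources used here.

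Promoter windows of 250 bases upstream of a RefSeq start (GRCm38.p6) were at hand for 119 of the members, 145 windows in all. For 114 of the 145, the bases just after the start stood in a GENCODE transcript of the gene. The member windows held a median of 13 CpG dinucleotides, the substrate context of Tet2, against 6 over all 32851 windows of the table. Those cover 27025 genes with no level set, while members were chosen by level. Windows of other genes at the members' level were not compared. The 193 windows of Zfp genes below the level held a median of 10. Motifs were searched on both strands as exact letters, and a match is a description only. The CRE letters TGACGTCA stood in 3.45% of member windows and in 1.55% of all, the palindromic NRF1 motif in 2.76% and 0.78%, the ETS letters CCGGAAGT in 7.59% and 2.88%, the YY1 letters AAGATGGC in 3.45% and 1.56%, the SP letters GGGGCGGGG in 14.48% and 10.38%, and the CCAAT box letters CCAAT in 41.38% and 33.85%. In windows of the Zfp genes below the level the shares were 3.63% for CRE, 3.11% for NRF1 and 10.36% for ETS. They were 1.04% for YY1, 7.77% for SP and 46.11% for CCAAT there. None of the 6 motifs contains another.

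The windows below belong to 6 of the 11 members that were called in both the second knockdown and the overexpression experiment, and are shown because those members carry the comparison between the 2. Zfp445 and Zfp57 had windows too, with 3 to 7 CpG, and are left out because they held no motif or several windows. Sequences are from RefSeq, 5′ to 3′ on the strand of the gene, with matches to the motifs in capitals. Zfp266 (chr9:20521420-20521669, minus strand) held 19 CpG with CRE and SP letters, Zfp512 (chr5:31452186-31452435, plus) 11 with SP, Zfp811 (chr17:32809932-32810181, minus) 4 with YY1 and CCAAT, and Zfp941 (chr7:140822179-140822428, minus) 4 with CCAAT. These 4 were lower in the second knockdown and higher with overexpression. Zfp444 (chr7:6172263-6172512, plus), which was higher in both, held 13 CpG with SP, and Zfp775 (chr6:48601757-48602006, plus), which moved the opposite way to the first 4, held 18 with CCAAT.
Zfp266: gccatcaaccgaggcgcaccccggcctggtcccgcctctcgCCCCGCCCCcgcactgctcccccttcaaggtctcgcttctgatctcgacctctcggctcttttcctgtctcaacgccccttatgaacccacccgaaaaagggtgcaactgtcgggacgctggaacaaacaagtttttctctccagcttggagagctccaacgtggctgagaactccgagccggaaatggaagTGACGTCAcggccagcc
Zfp512: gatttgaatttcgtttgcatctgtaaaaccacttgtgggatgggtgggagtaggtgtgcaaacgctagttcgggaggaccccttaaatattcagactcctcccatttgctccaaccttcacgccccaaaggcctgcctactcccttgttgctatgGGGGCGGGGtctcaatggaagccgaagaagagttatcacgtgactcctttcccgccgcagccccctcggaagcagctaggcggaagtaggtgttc
Zfp811: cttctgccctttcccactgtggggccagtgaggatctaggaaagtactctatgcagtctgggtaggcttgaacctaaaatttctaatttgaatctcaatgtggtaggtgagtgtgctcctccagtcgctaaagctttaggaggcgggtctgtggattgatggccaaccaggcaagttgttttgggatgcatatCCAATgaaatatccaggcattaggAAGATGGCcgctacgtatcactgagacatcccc
Zfp941: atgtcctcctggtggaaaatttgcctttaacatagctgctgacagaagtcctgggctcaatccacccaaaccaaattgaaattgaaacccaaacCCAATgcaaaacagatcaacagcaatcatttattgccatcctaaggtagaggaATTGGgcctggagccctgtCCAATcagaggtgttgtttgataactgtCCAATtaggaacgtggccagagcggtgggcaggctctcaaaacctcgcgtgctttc
Zfp444: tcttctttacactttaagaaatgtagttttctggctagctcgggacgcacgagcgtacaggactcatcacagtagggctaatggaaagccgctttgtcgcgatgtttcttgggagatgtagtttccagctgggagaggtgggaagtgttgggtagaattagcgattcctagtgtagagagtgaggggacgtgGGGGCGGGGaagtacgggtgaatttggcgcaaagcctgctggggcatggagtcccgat
Zfp775: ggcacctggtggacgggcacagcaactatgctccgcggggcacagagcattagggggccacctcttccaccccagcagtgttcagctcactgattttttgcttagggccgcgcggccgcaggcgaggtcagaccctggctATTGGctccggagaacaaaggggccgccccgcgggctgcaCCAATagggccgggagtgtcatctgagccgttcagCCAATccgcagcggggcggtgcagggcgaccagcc

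In wild-type and control libraries the members were expressed at moderate levels. Together they took 0.445 to 0.556% of the reads in WT nuclei, 0.451 to 0.555% in shLuciferase, 0.380 to 0.418% in shLuc and 0.188 to 0.273% in GFP libraries. The totals include Rn45s, the ribosomal RNA precursor, which took 18.1 to 25.9% of reads in WT nuclei and 1.46 to 4.17% in shLuciferase. It took 12 to 15.5% in shLuc and 0.0607 to 0.411% in GFP, so the shares differ in base between experiments. Per kilobase of exon, the level of Zfp706, a small single-finger protein, was the highest in the second knockdown controls (802.1 normalized counts per kb), followed by Zfp428 (532.2), Zfp771 (481), Zfp637 (436.1), Zfp580 (318.2) and Zfp207 (262.8), against a member median of 45.69. The order differed between tables, which were normalized separately. Zfp706 ranked 1 in the first knockdown controls and 2 in WT nuclei but 22 in GFP, where Zfp428 ranked 1 at 3564 per kb, and Zfp580 ranked 114 in WT nuclei. The mean over all libraries of a table fell below 100 for 17 members in nuclei, 19 in the first knockdown and 23 with overexpression.

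Depth differed widely. Reads recovered from the tables summed to 6377244 to 14882249 per library in nuclei, 2709421 to 43788798 in the first knockdown, 4785087 to 22781534 in the second, 16988077 to 48321564 in GFP and 66684922 to 73220675 in Tet2 OE. At least 15565 reads per library fell on the members. In the culture experiments, summed microglial markers (7 genes) ran from 8.033 to 37.77 normalized counts in shLuciferase and 0 to 46.34 in shTet2. They ran from 4.459 to 21.59 in shLuc and 11.29 to 27.54 in Tet2 KD. Of the 7, only Itgam was at 0 in every library of both knockdowns. With overexpression the sums ran from 44.73 to 215.8 in GFP and 27.19 to 73.98 in Tet2 OE, with 1 marker called lower. In the second knockdown, summed neuronal markers (9 genes) ran from 40760 to 52480 in Tet2 KD and 56310 to 62700 in shLuc. Astrocyte markers (8 genes) ran from 8354 to 10430 and 11470 to 13330. Progenitor and proliferation markers (8 genes) ran from 1036 to 1776 and 746 to 932, so all 3 sums separated the groups. Single markers did not all follow their sum: 2 neuronal markers were called higher and 3 lower, and 1 progenitor marker higher and 2 lower. Of the astrocyte markers, 0 were called higher and 3 lower. Vascular and meningeal markers (8 genes) ran from 122.8 to 245.5 in shTet2 and 416.1 to 697.5 in shLuciferase. In the second knockdown they ran from 79.05 to 152.6 in Tet2 KD and 172.8 to 281.9 in shLuc. Of these 8 genes, 4 in the first knockdown and 7 in the second had a mean under 10. With overexpression, oligodendrocyte markers (9 genes) ran from 3404 to 5423 against 6085 to 9955 in GFP, and vascular and meningeal markers from 338.4 to 673.2 against 746.6 to 1886. In nuclei, progenitor markers ran from 77.92 to 94.34 in cKO and 114.5 to 259.8 in WT. In bulk samples, fewer cells of a type and less RNA per cell cannot be told apart.

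**Figure D1:**
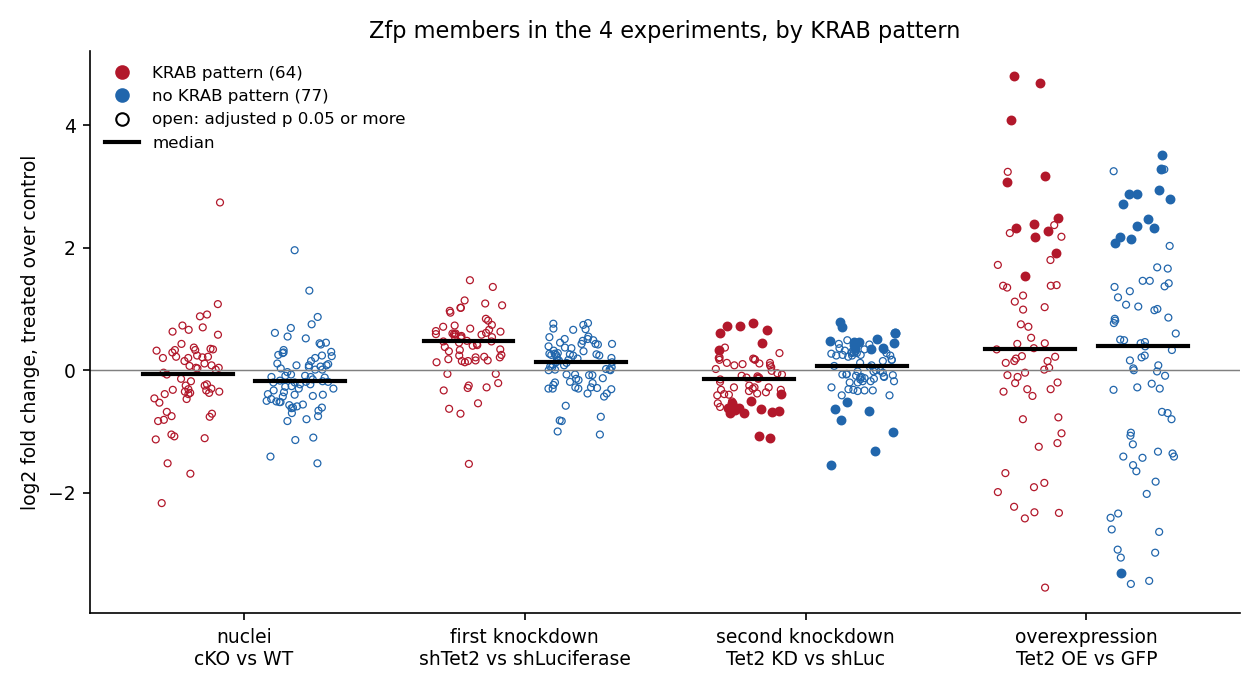
Log2 fold change of each member (1 point), treated over control, in the 4 experiments (x axis), for the 64 members with a KRAB pattern (red) and the 77 without (blue); filled points passed the adjusted p threshold of 0.05 and black bars are medians. In the first knockdown the KRAB median is 0.47 and the other 0.13, with no filled point, and the overexpression points spread from -3.55 to 4.8.

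Hippocampal neuronal nuclei came first. Here 0 of 142 members passed an adjusted p of 0.05 (limma with Benjamini-Hochberg adjustment over 18780 genes), as did 0 genes overall. Without adjustment, 1 member was higher and 13 were lower in cKO at p under 0.05, 9.86% of the members against 6.97% of all genes and 10.4% of genes with a mean of 100 or more, by limma; edgeR on the recovered reads called 0 and DESeq2 called 1. The median log2 fold change of the members was -0.13, beside -0.09 for all genes tested and 0.01 for genes with a mean of 100 or more. Normalized counts of cKO and WT libraries did not overlap for 7 members, all of them lower, 4.93% of 142, where lower non-overlap took 3.41% of all genes and 4.61% of genes of 100 or more. A member's 95% interval reached 0.85 to either side in the median, on the log2 scale, so a change of less than about that size was not detectable here. Larger changes could go uncalled too, since calls needed an adjusted p. The members, none of them called, had log2 fold changes from -2.17 to 2.74.

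The member with the smallest p in nuclei was Zfp592, a partner of Zmynd8 in a chromatin-reading complex. Its normalized counts were 561.7, 649.2, 635 and 740.9 in the WT libraries 1, 2, 5 and 6. They were 257.8, 266.6 and 388.1 in the cKO libraries 3, 4 and 9. Every cKO library lay below every WT library, and the log2 difference was -1.10 ± 0.26 (SE; limma adjusted p = 0.529). The authors' deposited table gave it -1.09 with an adjusted p of 0.0101. It was the only member that table called, where it called 0.335% of all genes lower. Zfp687, another protein of that complex, was at 397.5 ± 128 in WT (SD, n = 4) and 222.5 ± 77.27 in cKO (SD, n = 3; limma adjusted p = 0.696), with overlap. Zfp451, a SUMO ligase, stood at 239.9 ± 53.28 and 109.9 ± 37.57, with no overlap (limma adjusted p = 0.632). Zfp866, Zfp235 and Zfp382 completed the 6 smallest, with log2 differences of -1.11, -1.13 and -1.52. Zfp866 and Zfp235 shared 11.95% and 6.14% of their 50-base words with another gene, so their counts are uncertain.

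In the first knockdown the members leaned upwards as a group while none passed alone. None of the 142 reached an adjusted p of 0.05 by limma, against 1.93% of all genes tested and 3.63% of genes with a mean of 100 or more. On the recovered reads edgeR called 1 and DESeq2 5, all higher. Without shLuciferase library 1, limma called 3 higher. Unadjusted, limma gave 23 higher and 2 lower at p under 0.05, which is 17.6% of the members against 14.2% of all genes and 20% of genes of 100 or more. The log2 difference was above 0 for 103 members (72.5%), against 56.5% of all genes and 50.8% of genes of 100 or more, and its median was 0.25, beside 0.09 for all genes and 0.01 for genes of 100 or more. The KRAB members had a median of 0.47 with 82.8% above 0, and 17 of 64 were higher and 0 lower at unadjusted p under 0.05. The others had a median of 0.13 with 63.6% above 0, and 6 were higher and 2 lower. Among the Zfp genes under the level the median was 0.51, and among 25 Zscan and Zkscan genes, a related zinc finger family, it was 0.44. The 42 Zbtb genes stood at 0.05.

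The same lean appeared library by library. Measured against the mean of the controls, the member median was 0.21 to 0.44 in the 6 libraries labelled shTet2 and -0.18 to 0.11 in the 6 shLuciferase libraries, while the median of all genes of 100 or more stayed between -0.01 and 0.05. For KRAB members the ranges were 0.31 to 0.74 and -0.25 to 0.24. For the others they were 0.04 to 0.18 and -0.08 to 0.10, which overlap. Members took 0.571 to 0.667% of the reads in shTet2 and 0.451 to 0.555% in shLuciferase libraries, and total reads of the 2 groups overlapped. Summed vascular and meningeal markers separated these groups too, as given above, and their part in the result was not tested. The median lay between 0.20 and 0.29 when each library was left out in turn.

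**Figure D2:**
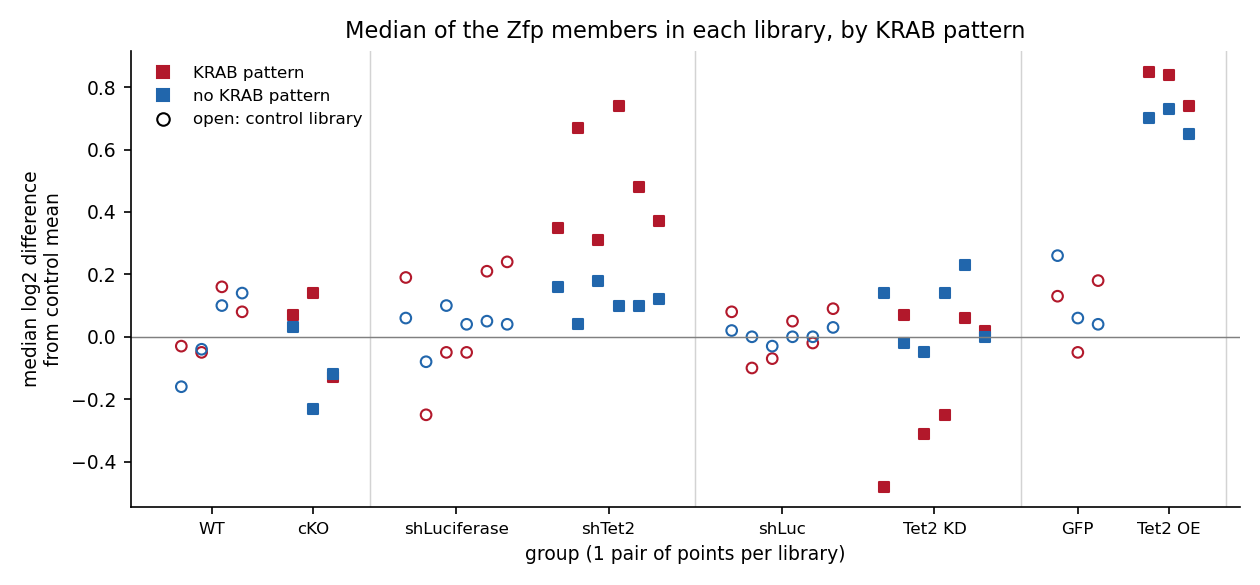
Median log2 difference of the KRAB members (red) and the other members (blue) from the mean of the controls, in each of the 37 libraries, grouped on the x axis; open circles are control and filled squares treated libraries. The 6 shTet2 libraries lie at 0.31 to 0.74 for KRAB members, the 6 Tet2 KD libraries run from -0.48 to 0.07, and the 3 Tet2 OE libraries lie at 0.74 to 0.85.

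Zfp612, a KRAB protein with 16 fingers, had the smallest p there. Its normalized counts had a lowest value of 239.6, a median of 308.1 and a highest of 456.7 in shLuciferase. In shTet2 the same 3 values were 370.7, 593.1 and 747.4, so the groups overlapped. The log2 difference was 0.84 ± 0.22 (SE; limma adjusted p = 0.0517), and the authors' deposited table gave 0.86 with an adjusted p of 0.00524. Zfp956 went from 232 ± 40.37 to 394.4 ± 73.01 (SD, n = 6 each) without overlap (limma adjusted p = 0.066). Zfp954, at a low level, went from 59.09 ± 29.27 to 143.3 ± 39.47 without overlap (limma adjusted p = 0.0971). These 2 were the only members with no overlap between the groups, 1.41% of 142 where non-overlap took 2.25% of all genes and 3.96% of genes of 100 or more. Zfp950, Zfp941 and Zfp655 differed by 0.81, 0.97 and 1.02, with overlap. The authors' deposited table called 6 members higher and 0 lower, where it called 1.98% of all genes higher.

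The second knockdown changed members in both directions, at no higher rate than genes with a mean of 100 or more. By limma, 20 members rose and 20 fell, 28.2% of 142, against 25.9% of all 16164 genes tested (12.6% higher and 13.2% lower) and 36.7% of genes with a mean of 100 or more. Genes with a mean of 100 to 400 were called in 32.9%, 14.6% higher and 18.3% lower. The median level was 216.7 for members, 438.5 for genes of 100 or more and 201.3 for genes of 100 to 400. The median log2 fold change of the members was -0.07, against -0.02 for all genes. KRAB members fell more often than they rose, with 13 lower and 7 higher of 64 and a median of -0.14. Their median against the control mean was -0.48, -0.31 and -0.25 in Tet2 KD libraries 4, 6 and 10, and 0.07, 0.06 and 0.02 in libraries 5, 11 and 12, which lie within the shLuc range of -0.10 to 0.09. Members without KRAB rose more often, with 13 higher and 7 lower of 77 and a median of 0.07. The difference between the classes was not tested. Without Tet2 KD library 10, 13 members rose. The columns are numbered 1 to 6 and 7 to 12 with 3 libraries of each group in both, and Tet2 in Tet2 KD was 153.9 to 295.7 in the first set and 88.23 to 123.7 in the other. All 40 called members changed in the same direction within both sets, but they were called on these same libraries, so this is no independent support. A block for the set gave 19 higher and 20 lower, without Zfp707 (limma adjusted p = 0.0501). For 9 members in each direction the libraries did not overlap, 12.7% of 142 where 12.2% of all genes and 18.6% of genes of 100 or more did so. Since the members were chosen by their mean over these libraries, 5 called members had 1 group under 100 (Zfp275, Zfp575, Zfp7, Zfp768 and Zfp811), and their calls are a description of genes near the level. The sums of neuronal, astrocyte and progenitor markers separated these groups as well, and their part in the member changes was not tested.

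Among the members that fell, Zfp410 had the smallest p. This non-KRAB protein with 5 fingers is known as a direct activator of Chd4, the helicase of the NuRD repressor complex. From lowest to highest, its normalized counts were 523, 539.2, 539.5, 571.8, 601.9 and 624.6 in the 6 shLuc libraries. They were 201.9, 207.4, 219.7, 229.3, 238.2 and 267.2 in the 6 Tet2 KD libraries. The 2 groups were far apart, with a log2 fold change of -1.32 ± 0.11 (SE; limma adjusted p = 4.51e-08). A predicted antisense gene overlaps an exon of Zfp410 (chr12:84316852-84343723), so some counts could belong to it. Chd4 fell in the same libraries, from 171.9 ± 13 to 105.6 ± 19.89 (SD, n = 6 each; limma adjusted p = 0.00147). It was named after its value was seen, and 17% of genes with a mean of 100 or more fell here. A link between the 2 falls was not tested.

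Zfp704, a single-finger protein (chr3:9427020-9610085, mm10), had the largest fall. The 6 shLuc libraries ran from 252.9 to 327.2 and the 6 Tet2 KD libraries from 77.64 to 124.7 normalized counts. The groups did not overlap, and the log2 fold change was -1.54 ± 0.14 (SE; limma adjusted p = 1.62e-07). A gene on the other strand overlaps one of its exons. Zfp87, a KRAB protein, fell from 383.5 ± 51.42 to 182.1 ± 49.66 (SD, n = 6 each; limma adjusted p = 8.41e-05), and shared 9.59% of its 50-base words with another gene. Zfp811, Zfp46 and Zfp941 fell by 1.07, 0.82 and 0.62 on the log2 scale. Zfp532 fell by 0.64. Zfp148, which binds GC-rich promoters, fell from 407.5 ± 38.82 to 284.1 ± 31.85 (SD, n = 6 each; limma adjusted p = 0.00217).

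Both imprinting proteins fell. Zfp57 was at 218.3 to 244.2 normalized counts in the 6 shLuc libraries and 96.11 to 217.7 in the 6 Tet2 KD libraries, with the highest KD library just under the lowest control. Its log2 fold change was -0.68 ± 0.17 (SE; limma adjusted p = 0.00508). Zfp445 was at 140.7 to 240.2 in shLuc and 65.61 to 192.8 in Tet2 KD, with overlap, and fell by 0.70 ± 0.21 (SE; limma adjusted p = 0.0204). Without shLuc library 1 or without Tet2 KD library 10, Zfp445 no longer passed, with adjusted p up to 0.058.

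The members that rose changed less. Zfp612 went from 217.4 to 326.5 in shLuc to 381.5 to 556.8 in Tet2 KD, with no overlap, and its log2 fold change was 0.77 ± 0.14 (SE; limma adjusted p = 0.000314). Zfp219 rose by 0.78, with shLuc libraries at 130.4 to 181.8 and Tet2 KD libraries at 170.3 to 398.1, which overlap. Zfp213, a KRAB protein, rose from 218 ± 13.04 to 364.1 ± 58.14 (SD, n = 6 each; limma adjusted p = 0.000219). Zfp777 and Zfp316, both with KRAB patterns, rose by 0.73 and 0.65, and Zfp768 by 0.70. Zfp511 and Zfp593, small proteins of 250 and 134 residues, rose by 0.42 and 0.46. Zfp771, one of the highest members per kilobase, rose by 0.60 (limma adjusted p = 0.0141). Genes on the other strand overlap exons of Zfp213, Zfp219, Zfp777, Zfp511 and Zfp593.

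**Figure D3:**
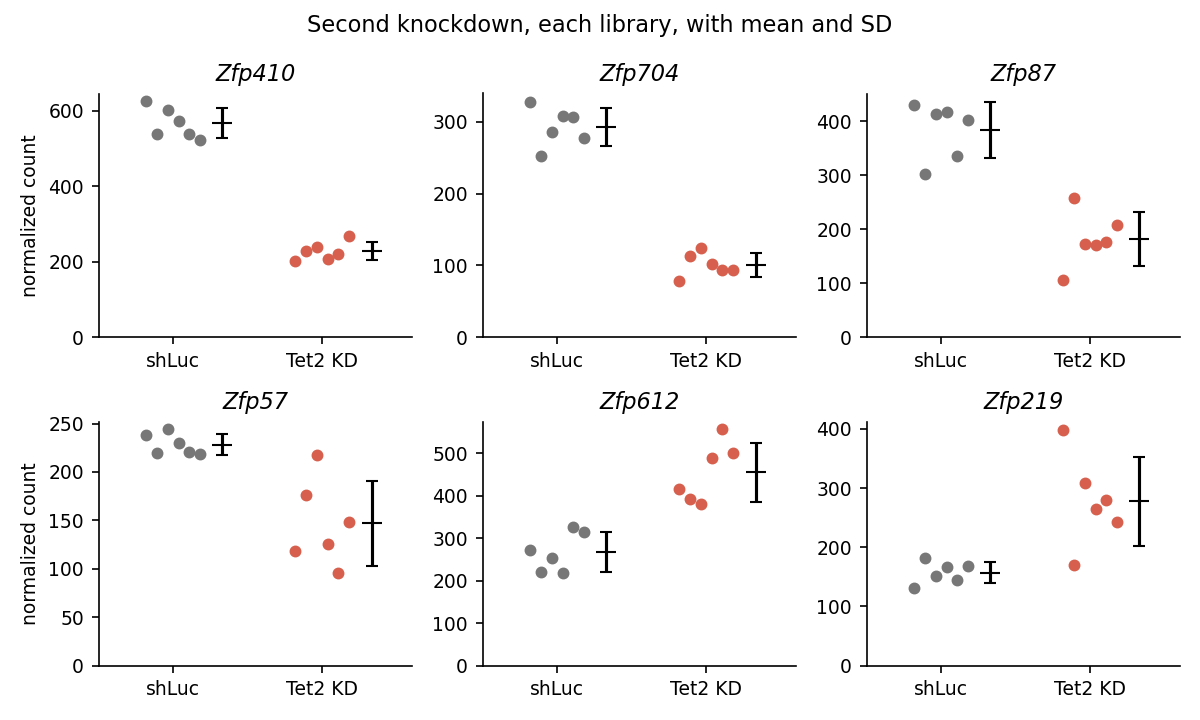
Normalized counts (y axis, linear from 0) of 6 members in each of the 6 shLuc (grey) and 6 Tet2 KD (orange) libraries, with the mean and SD beside them. Zfp410, Zfp704, Zfp87 and Zfp57 are lower and Zfp612 and Zfp219 higher in Tet2 KD, and the Zfp219 groups overlap.

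Of the 17 members on a list of 29 Zfp genes with textbook roles, 13 did not pass in the second knockdown. Zfp207, which binds microtubules and the spindle checkpoint protein Bub3, was at 1750 ± 199.2 and 1425 ± 288.5 (SD, n = 6 each; limma adjusted p = 0.0766). Zfp281, a relative of Zfp148, had a log2 difference of -0.10, and Zfp106, an RNA-binding protein needed by motor neurons, one of -0.15. Zfp335, required in neural progenitors, differed by 0.29 and Zfp292 by -0.04. The splicing factor Zfp326 differed by -0.20, Zfp622, a ribosome maturation factor, by 0.49, Zfp638 by -0.06, Zfp536, a brake on neuronal differentiation, by 0.12, and Zfp64 by 0.25. Zfp110, which binds the p75 neurotrophin receptor, differed by -0.38, Zfp260 by -0.32 and the ubiquitin ligase Zfp91 by -0.34. The other 12 genes of the list, such as Zfp36, Zfp568 and Zfp809, were below the level.

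Zfp704, Zfp954, Zfp941, Zfp956, Zfp445, Zfp950, Zfp87 and Zfp811 differed between the experiments in the change itself (limma interaction of experiment and treatment, adjusted over 15796 genes). That is 8 of 142, 5.63%, against 1.83% of all genes and 2.98% of genes of 100 or more in both tables. In all 8 the second knockdown lay below the first. Among them Zfp811 had 1 group under 100 in the second knockdown, as given above. Zfp954 was at 1.36 in the first and -0.50 in the second, a difference of -1.86 ± 0.37 (SE; limma adjusted p = 0.00928). For Zfp704 the values were -0.19 and -1.54 (difference -1.36 ± 0.22, limma adjusted p = 0.000785), for Zfp941 0.97 and -0.62 (difference -1.59 ± 0.34, limma adjusted p = 0.0135) and for Zfp956 0.76 and -0.09 (difference -0.85 ± 0.20, limma adjusted p = 0.0249). The count ran from 3 without Tet2 KD library 4 to 12 without Tet2 KD library 5. It was 4 or 5 without shLuc library 1, 3 or 7, Tet2 KD library 10 or 11, shLuciferase library 3 or shTet2 library 4. Extraction also differed between these experiments, TRIzol in the first and RNeasy in the second. Only the column names of the second carry the mark 3d. The part of either cannot be told apart from the experiment.

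By protein class, KRAB members gave 6 of the 8, and their median difference, second minus first, was -0.51, against -0.14 for the members without KRAB and -0.07 for all genes. A value above 0 in the first and below 0 in the second was seen for 34 of 64 KRAB members (53.1%) and 22 of 77 others (28.6%), and for 19.1% of 8492 genes with a mean of 100 or more in the second knockdown. The difference between the classes was not tested. Across the 142 members the log2 fold changes of the 2 knockdowns had a Spearman coefficient of 0.02, beside 0.32 across the same 8492 genes. Genes share libraries and are not independent replicates, so these coefficients are a description.

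With overexpression nearly all members that passed were higher. By limma, 25 members rose and 1 fell, 18.3% of 142, against 9.96% of all 22399 genes tested (6.19% higher and 3.77% lower) and 19.4% of genes with a mean of 100 or more. Genes of 100 or more were called higher in 13.7% and lower in 5.7% of cases. Genes with a mean of 100 to 400 were called in 8%, 3.2% higher and 4.8% lower, with a median log2 fold change of -0.27. The median level was 284.5 for members, 449.8 for genes of 100 or more and 192.5 for genes of 100 to 400, so neither set matches the members. The member median was 0.38, beside 0.18 for genes of 100 or more and -0.75 for all genes, and it was -0.33 when libraries were scaled to their read totals, which moved the median of all genes by -0.57 and that of the genes of 100 or more by -0.71. TMM factors moved the median of all genes by 0.16 and gave 28 higher and 0 lower, while read totals gave 17 and 3. The member median was 0.20 above that of the genes of 100 or more with every scaling tried. A scaling shifts all genes of a library nearly alike, so this distance could not respond to it and is no check. KRAB members gave 12 of the 25 and the others 13. Without GFP library 5 the number that rose was 15.

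The members' share of reads was 0.490 to 0.505% in Tet2 OE and 0.188 to 0.273% in GFP. Much of that was Zfp266, and without it the shares were 0.341 to 0.362% and 0.178 to 0.263%. Normalized counts of the 2 groups did not overlap for 42 members that were higher and 12 that were lower, 29.6% and 8.45% of 142. Non-overlap took 12.5% and 19% of all genes in those directions, and 25.4% and 15.3% of genes of 100 or more. Tet2 OE libraries were deeper than every GFP library and had reads on fewer genes, 16457 to 18371 against 18540 to 21194. Rn45s took 0.00452 to 0.00662% of reads in Tet2 OE and 0.0607 to 0.411% in GFP. The oligodendrocyte and vascular marker sums separated these groups as well, and the part of depth, Rn45s and markers in the results was not tested. Summed astrocyte markers ran from 186400 to 227100 in Tet2 OE and 63690 to 213600 in GFP, which overlap.

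The KRAB proteins Zfp266 and Zfp948 had the smallest adjusted p. Zfp266 (chr9:20495068-20521417, mm10), of 604 residues with 9 fingers, was at 2162, 4065 and 4086 normalized counts in the GFP libraries. It was at 112000, 71490 and 77380 in the Tet2 OE libraries, which are far above. Its log2 fold change was 4.69 ± 0.46 (SE; limma adjusted p = 1.54e-05), and it shared 0 of its 50-base words with another gene. Zfp948 was at 153.6, 252.4 and 528 in GFP and 10110, 6298 and 7078 in Tet2 OE, a log2 fold change of 4.8 ± 0.50 (SE; limma adjusted p = 1.73e-05). In the second knockdown Zfp266 had fallen by 0.39 (limma adjusted p = 0.0289), a call lost without shLuc library 1, 7 or 9 or Tet2 KD library 4 or 10 (adjusted p up to 0.0665), and Zfp948 had a log2 difference of -0.12 (limma adjusted p = 0.665).

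The imprinting pair rose as well. Zfp57 was at 346.8, 348.2 and 861.8 in GFP and 7395, 7674 and 9027 in Tet2 OE, and its log2 fold change was 4.09 ± 0.46 (SE; limma adjusted p = 3.43e-05). Zfp445 rose from 549.3 ± 252.5 to 2700 ± 326.1 (SD, n = 3 each; limma adjusted p = 0.00307), and no longer passed without GFP library 5 (limma adjusted p = 0.0516). Neither gene's groups overlapped. Zfp612, another KRAB protein, rose by 3.07.

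Members without a KRAB pattern rose by up to 3.51 on the log2 scale. Zfp263 was at 479.2, 1200 and 1252 in GFP and 10980, 10010 and 9688 in Tet2 OE (log2 fold change 3.51 ± 0.45, SE; limma adjusted p = 9.91e-05). Zfp207 was at 753.2, 1733 and 2713 in GFP and 18070, 12820 and 13960 in Tet2 OE (3.28 ± 0.48, SE; limma adjusted p = 0.000262). Zfp281 rose by 2.94, Zfp444 by 2.88, Zfp704 by 2.87, Zfp106 by 2.18 and Zfp91 by 2.08. The 1 member that fell was Zfp775, at 586.4, 120.6 and 156 in GFP and 30.88, 14.31 and 22.52 in Tet2 OE. Its log2 fold change was -3.31 ± 0.98 (SE; limma adjusted p = 0.0408). It no longer passed with TMM factors, or without GFP library 4, 5 or 6, or Tet2 OE library 4 or 6, with adjusted p up to 0.184. Zfp106 and Zfp941 lost their calls under 6 and 8 of the 16 alternatives.

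**Figure D4:**
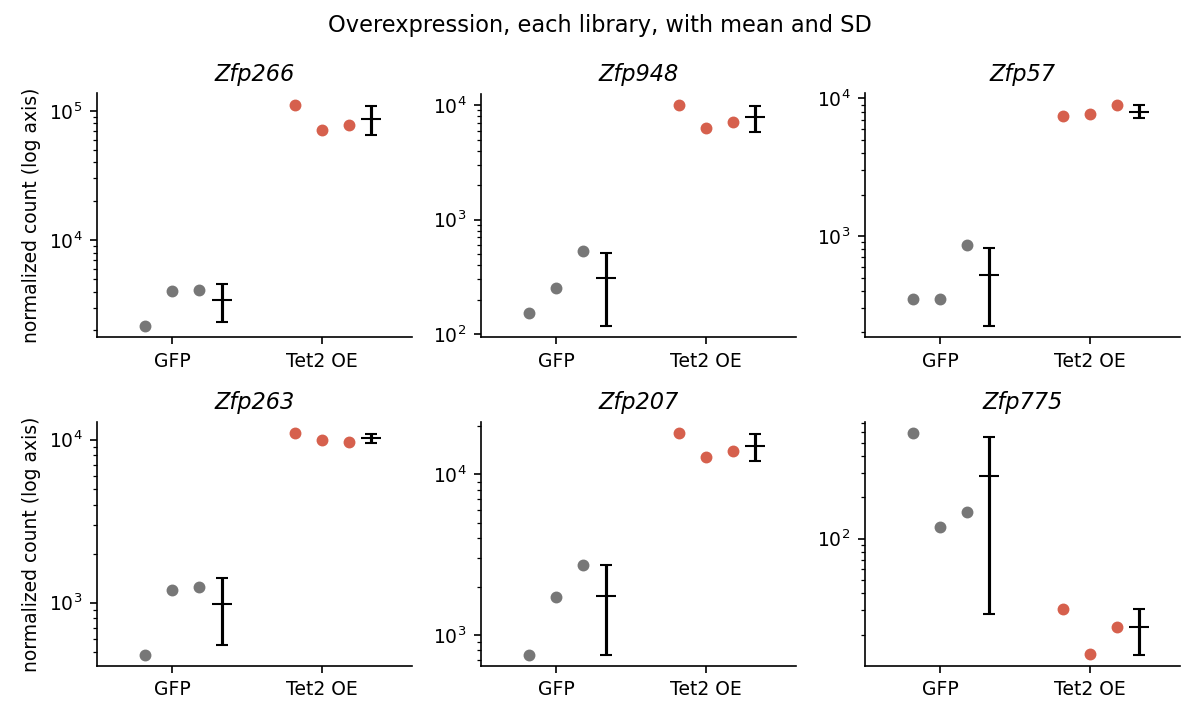
Normalized counts (log y axis) of 6 members in each of the 3 GFP (grey) and 3 Tet2 OE (orange) libraries, with the mean and SD beside them. Zfp266, Zfp948, Zfp57, Zfp263 and Zfp207 are higher in every Tet2 OE library than in any GFP library, and Zfp775 is lower.

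Of the 142 members, 87 were called in no experiment, 44 in 1 and 11 in 2. With 0 members called in nuclei and in the first knockdown, those 2 could only be the second knockdown and overexpression. The 11 are 7.75% of members, where 9.21% of 8492 genes with a mean of 100 or more in the second knockdown were called in 2 or more. Zfp266, Zfp445, Zfp512, Zfp532, Zfp57, Zfp704, Zfp811 and Zfp941 fell in the second knockdown and rose with overexpression. Of these 8, Zfp57 and Zfp704 passed in both experiments under every alternative run. Zfp266 lost its knockdown call under 5 of 23 alternatives and Zfp445 under 2. With overexpression Zfp941 lost its call under 8 of 16, Zfp512 under 3, Zfp811 under 2, and Zfp532 and Zfp445 under 1 each. Zfp811 also had 1 group under 100 in the second knockdown, as given above, so its call there describes a gene near the level. Zfp444 and Zfp612 rose in both experiments, though Zfp444 lost its knockdown call under 6 of 23, and Zfp775 rose in the first of these and fell in the other. In shares, 8 members are 40% of the 20 that fell in the knockdown and 32% of the 25 that rose with overexpression. Over the same 8492 genes, those shares were 17.7% and 26.7%, and the differences were not tested. The Spearman coefficient between the 2 sets of log2 fold changes was -0.37 over the 142 members, beside -0.19 over the same 8492 genes. Zfp704 went from -1.54 to 2.87 and Zfp57 from -0.68 to 4.09 between the 2 experiments. Zfp410, in contrast, was at -1.32 in the knockdown and 0.21 with overexpression (95% interval -1.69 to 2.11), a width that leaves its direction there unmeasured.

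**Figure D5:**
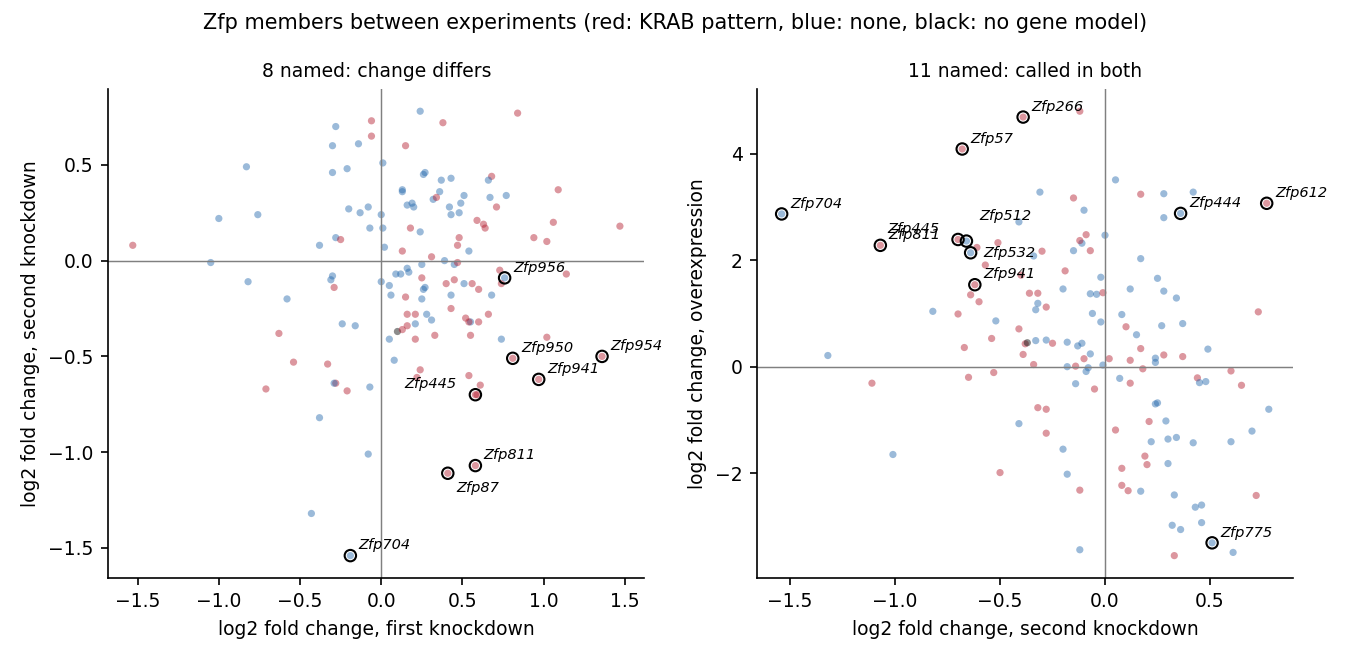
Log2 fold changes of the 142 members, first against second knockdown (left) and second knockdown against overexpression (right), with KRAB members in red and others in blue. Named on the left are the 8 members whose change differed between the knockdowns, all below in the second, and on the right the 11 called in both experiments, 8 of them at upper left.

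The partners of KRAB proteins were followed through a list of 45 genes of the Trim28, H3K9 methylation, NuRD, HUSH and DNA methylation machinery, of which 44 were in the tables. In the second knockdown 3 rose and 8 fell (25%, against 25.9% of all genes and 36.7% of genes of 100 or more), Zfp57 and Zfp445 being 2 of those that fell. Rcor1, a scaffold of the CoREST repressor, fell from 37.67 ± 10.77 to 12.85 ± 3.262 (SD, n = 6 each; limma adjusted p = 0.00035). The H3K9 methyltransferase Suv39h1 fell by 0.68, the HP1 protein Cbx5 by 0.62 and Chd4 by 0.71. Mta1 and Mta2 of NuRD rose by 0.70 and 0.39 and the HUSH subunit Mphosph8 by 0.42. Trim28 itself was at 902.8 ± 63.39 and 1146 ± 287.5 (SD, n = 6 each; limma adjusted p = 0.0899) and Setdb1 at 335.8 ± 23.89 and 273.2 ± 43.27 (limma adjusted p = 0.0671). Of the 44, 1 passed in the first knockdown, Suv39h1, which fell by 0.72 (limma adjusted p = 0.0393). With overexpression 6 rose and 1 fell (15.9%, against 9.96% of all genes and 19.4% of genes of 100 or more). Ehmt1, which methylates H3K9, rose by 2.92, Trim33 by 2.15, Kdm1a by 1.97 and Morc3 by 2.79, Zfp57 and Zfp445 being the other two, and Sumo2 fell by 1.44. In nuclei 0 of 44 passed, and 3 were lower at unadjusted p under 0.05.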

How the data were processed

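The authors deposited 4 tables, 1 per experiment, with normalized counts per gene and library (a signal scaled by 1 size factor per library) beside their own log2 fold changes, a test score, p-values and adjusted p-values. The submitters' processing notes name STAR, RSEM, DESeq2 and mm10, with versions and settings not given in the sources used here. Per the labels, all libraries were polyA RNA made with a strand-specific kit. The deposited log2 ratio of the nuclei table runs WT over cKO, so its sign was turned. The deposited score was not used. Every value was a whole number of reads times 1 step per library, within 0.01 reads, for 100% of values, so library sizes and count tests used those reads.

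Normalized counts were tested with limma 3.58.1 (R 4.3.3, trended variance) on log2(value + 1), each table on its own, for genes with a mean of 0.5 or more. Fold changes are on that scale, which understates the change of low genes. P-values were adjusted by Benjamini-Hochberg over all genes tested, and "called", "rose" and "fell" mean an adjusted p under 0.05. The difference between the knockdowns was an interaction in 1 limma fit of both tables. Single values were compared by exact permutation tests. edgeR 4.0.16 and DESeq2 1.42.0 on the recovered reads, other scalings, filters and pseudocounts, and leaving out each library were alternatives. The fits were tested on simulated data.

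Members and gene lists were chosen with earlier results of these data known. Named members were those with the smallest adjusted p and largest change per direction in each experiment, those called in 2 experiments or differing between knockdowns, the highest per kilobase, those next to the level, and a list of textbook roles. Chd4 was named in addition, as the known target of Zfp410, after its value was seen. Protein features came from GENCODE vM21 coding sequences, in place of the RefSeq proteins first planned. A KRAB pattern needed at least 16 of 25 conserved positions. In the first knockdown, same-numbered libraries did not deviate together (r from -0.139 to 0.058 over 6 pairs), so they were not paired. No 2 libraries were duplicates.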

Additional observations from a re-analysis of the deposited data

Results flagged for a closer look

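In 16 of 275 groups of 4 or 6 libraries tested, over 55 named genes, 1 library stood far from the others of its group. Chance alone gives about 1 in 20. In WT nuclei, Zfp454 was at 80.9 normalized counts in library 6 against 0 to 2.28 in the others, and Zfp637 at 766 in library 2 against 497 to 502. In shLuciferase, library 3 was high for Zfp213 (322 against 82.2 to 142) and low for Zfp260 (173 against 529 to 648). Library 6 was high for Zfp235 (325 against 111 to 184), library 2 for Zfp811 (157 against 67.7 to 100) and library 1 for Zfp941 (404 against 92.5 to 166). In shTet2, Zfp777 was low in library 4 (111 against 193 to 241) and Zfp941 high in library 6 (514 against 255 to 335). In shLuc, library 1 was high for Zfp106 (572 against 440 to 487) and Zfp445 (240 against 141 to 178), library 3 for Zfp326 (331 against 275 to 293) and library 9 for Zfp444 (1020 against 920 to 955), while library 8 was low for Zfp512 (548 against 885 to 1060). Tet2 KD library 4 was high for Zfp316 (940 against 429 to 562) and Zfp687 (272 against 171 to 197).

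The change differed between the 2 knockdowns, by the limma interaction, for 8 members. The second minus the first was -1.36 for Zfp704, -1.86 for Zfp954, -1.59 for Zfp941, -0.85 for Zfp956, -1.28 for Zfp445, -1.32 for Zfp950, -1.52 for Zfp87 and -1.65 for Zfp811, on the log2 scale.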

How the results depend on the processing

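In nuclei the count of members called lower was 0 in limma and 1 by DESeq2 and by the authors' adjusted p. In the first knockdown the count called higher was 0, and it was 2 with a mean of 10 or more, 1 with library totals, 1 by edgeR, 5 by DESeq2, 6 by the authors' adjusted p and 1 with members of 50 or more. In the second knockdown, members of 200 or more gave 11 lower and a median of 0.05, and leaving out members that share sequence or overlap a gene on the other strand, an alternative chosen after seeing the data, gave 10 higher; both settings hold fewer members. With overexpression the count called lower was 2 with a pseudocount of 5, 0 with TMM factors, 3 with library totals, 6 by DESeq2, 6 by the authors' adjusted p and 0 without the members that share sequence. The median there was 0.57 with TMM factors, -0.33 with library totals, 0.83 by edgeR, 0.66 by DESeq2 and by the authors' table, and 0.52 without those members. Leaving out each library in turn gave 0 to 3 higher in the first knockdown, 13 to 26 higher and 15 to 27 lower in the second, 15 to 26 higher and 0 to 3 lower with overexpression (median 0.40 to 0.80), and 3 to 12 members differing between the knockdowns. Except for the settings that hold fewer members or libraries, the cause was not tested. With the replicate number as a block, the first knockdown gave 0 higher, 0 lower and a median of 0.25; its libraries share only a number, and 1 of 6 correlated best with its own. No paired analysis was possible for the second knockdown and overexpression because their column numbers could not be tied to the replicate numbers of the titles. A block for the column numbers 1 to 6 and 7 to 12 of the second knockdown, chosen after seeing the data, left 39 of 40 member calls and 8 members differing between the knockdowns. What these numbers mark is not given in the labels. Of 24 named calls in the second knockdown 20 passed under every alternative run, and of 18 with overexpression 11 did; 0 changed sign. With 3 to 6 libraries a group, changes smaller than the intervals were not detectable, and some larger ones were not called either.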
